A study of Mus with 18 samples.

Results

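The interferon regulatory factors are a family of transcription factors, and 8 of their genes were followed here: Irf1, Irf2, Irf3, Irf4, Irf5, Irf7, Irf8 and Irf9. They were picked by symbol, and all 8 were found among the 21401 gene symbols of both RNA-seq tables, one for cells labelled C2C12, a mouse myoblast line, and one for gastrocnemius, a calf muscle. Each table holds 9 libraries in 3 groups of 3, named control, LPS and LPS-MIC-1, which makes 18 over both, and gives FPKM, fragments per kilobase of transcript scaled to all mapped fragments, a unit per length that lets genes of one table be compared. LPS is lipopolysaccharide from the bacterial outer membrane, and MIC-1 is moringa isothiocyanate-1 from the seeds of Moringa oleifera.

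The control cells received vehicle, labelled as saline, whereas the text of the study names ethanol. The LPS cells received 1 μg/mL LPS, and the LPS-MIC-1 cells received the same LPS with MIC-1 for 24 h, at 10 μM by the labels, whereas the text of the study names another concentration for the sequenced cells. The muscle came from C57BL/6 male mice. The LPS mice were injected intraperitoneally with 10 mg/kg LPS. The LPS-MIC-1 mice were in addition gavaged with 80 mg/kg MIC-1 on each of the 3 days before the same LPS. The control mice received saline vehicle by the labels, whereas the text of the study names oral DMSO. Tissue was taken 16 h after LPS. No group of either experiment received MIC-1 without LPS, C2C12 is a single cell line, and no source used here says whether the cell replicates were separate cultures, so p-values for the cells measure the spread between these samples.

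All members share an amino-terminal DNA-binding domain that reads the interferon-stimulated response element, a repeated GAAA core in the promoters of antiviral genes. Toll-like receptors such as Tlr4, which senses LPS, and the cytosolic nucleic acid sensors act through kinases of the Tbk1 type on Irf3 and Irf7, which then switch on type I interferon genes. Secreted interferon is read by its receptors through JAK kinases and the STAT proteins, and Irf9 carries STAT proteins to the DNA of the target genes, Irf7 among them. Irf4, Irf5 and Irf8 are best known from blood cells, though not every one of them is restricted to these.

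The labels of the cells were compared with marker genes first. The 14 macrophage markers found, of 15 listed, summed to 10586 to 10652 FPKM in the libraries labelled C2C12 control, to 7579 to 7802 in those labelled C2C12 LPS, and to 283.9, 80.3 and 90.7 in LPS-MIC-1 replicates 1, 2 and 3. Lyz2, Cd14 and Fcer1g led this list, with 4694 ± 85.5, 705 ± 4.61 and 998 ± 43.6 FPKM in control (mean ± SD, n = 3). The 8 myoblast markers summed to 0.136 to 0.361 FPKM in control, 0.301 to 1.99 with LPS and 703 to 915 with LPS-MIC-1, led by Des, Cdh15 and Chrna1, and Myf5, Pax7 and Msc were at 0 in every library of control and LPS. The libraries labelled control and LPS thus went against the C2C12 label, while those labelled LPS-MIC-1 carried myoblast markers, and leaving out those 6 libraries leaves no comparison of the cells. Every difference between LPS-MIC-1 and the other cell libraries below moved with these marker genes, and treatment and cell identity cannot be told apart there. In muscle, the 10 fibre genes, led by Acta1, Ckm and Mylpf, summed to 187289 to 192755 FPKM in control, 183159 to 187362 with LPS and 143445 to 155945 with LPS-MIC-1, which lay below both other groups. LPS-MIC-1 replicate 3 of the muscle stood apart, with 201 FPKM of macrophage markers against 40.4 and 38.1 in its other replicates, 24.4 to 28.1 in LPS and 18.8 to 21.5 in control.

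In the cell libraries, the summed Irf mRNA differed between groups in size and in make-up. The FPKM of the 8 members summed to 311 ± 1.93 in control, 531 ± 1.84 with LPS and 68.2 ± 5.76 with LPS-MIC-1, and the 3 ranges did not overlap. Irf5 was the leading member in control with 38.2% ± 0.61 of the sum, Irf7 in LPS with 52.3% ± 0.63, and Irf3 in LPS-MIC-1 with 67.3% ± 9.85. In muscle the sum was 36.2 ± 0.643 FPKM in control, 35.2 ± 0.734 with LPS and 96.2 ± 2.99 with LPS-MIC-1, with control and LPS overlapping. Irf3 led there in control with 30.0% ± 1.11 and in LPS with 28.1% ± 3.51, and Irf7 led in LPS-MIC-1 with 27.5% ± 1.01, where it had 7.29% ± 0.19 in control. In these bulk samples, fewer cells of a type and less RNA per cell cannot be told apart.

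**Figure D1:**
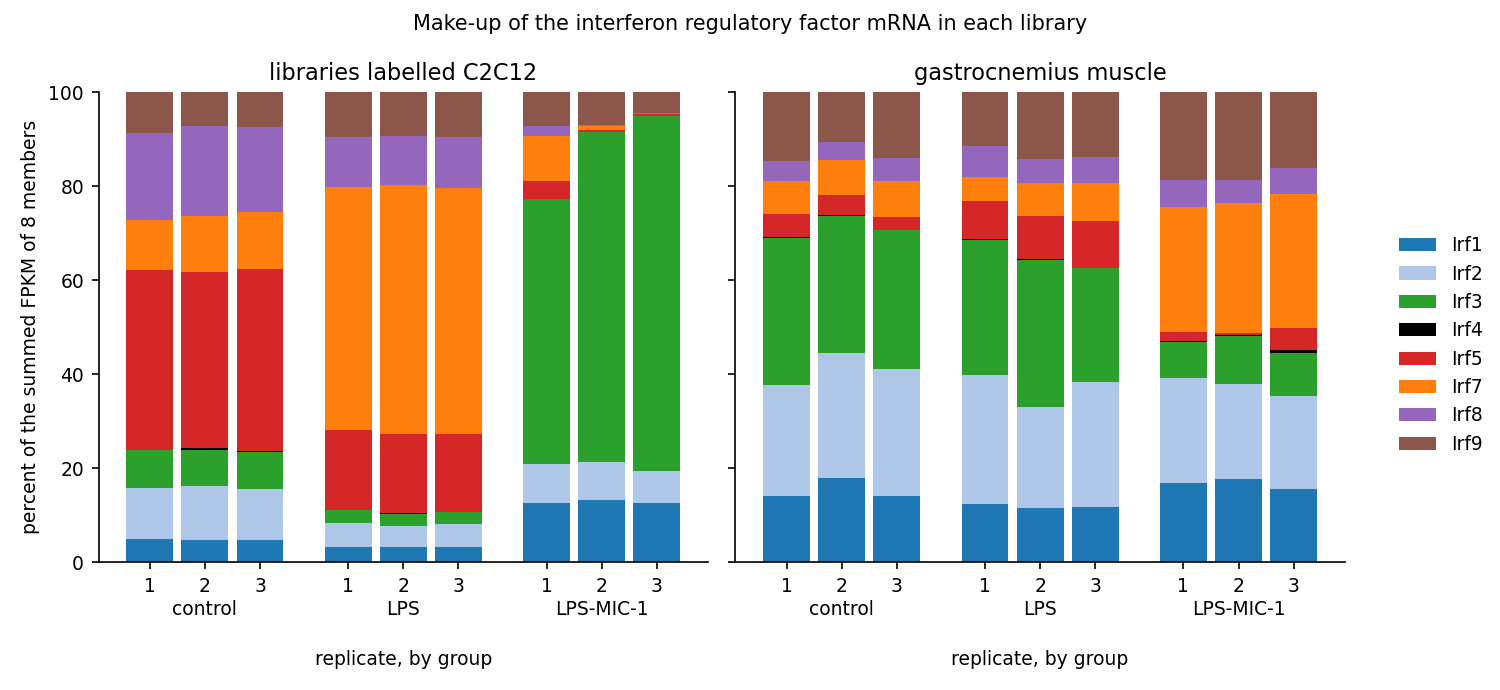
Share of each member in the summed FPKM of the 8 members (vertical axis, percent), 1 bar per library, with replicates 1 to 3 of each group side by side. Irf5 took the largest share in the control cell libraries, Irf7 with LPS and Irf3 with LPS-MIC-1, and in muscle the Irf7 share was largest in the 3 LPS-MIC-1 libraries.

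Differences were tested with limma on log2(FPKM + 0.1) for genes with a mean over 1 FPKM, 10877 in cells and 9475 in muscle. A gene was called when its log2 fold change passed 1 in size and its Benjamini-Hochberg adjusted p over all genes tested was under 0.001 in cells or 0.05 in muscle. Irf4 stayed under the FPKM minimum in both tables, so 7 of the 8 members were tested, and each of the 7 had a mean over 1 FPKM in both control and LPS. An exact permutation test of 2 groups of 3 reaches no 2-sided p under 0.1.

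For LPS against control in the cell libraries, 0 of 7 members were called by limma, where 10.9% of all genes tested were called higher and 10.0% lower. At an unadjusted p under 0.05, 2 members were higher and 2 lower, where 66.2% of all genes passed that p in either direction. For LPS-MIC-1 against LPS, 1 member was called higher (24.3% of all genes) and 5 lower (25.6%), with a median log2 fold change of -3.59 over the 7 members and -0.05 over all genes. For LPS-MIC-1 against control, 0 were called higher (21.1%) and 4 lower (22.1%), with medians of -2.66 and -0.06. There 1 member was higher and 6 lower at an unadjusted p under 0.05, which 82.2% of all genes passed. In muscle, LPS against control gave 0 called members (0.654% of all genes higher, 0.591% lower), with 1 higher and 1 lower at an unadjusted p under 0.05, which 29.6% of all genes passed. LPS-MIC-1 against LPS gave 5 higher (9.67%) and 0 lower (5.44%), with medians of 1.33 and -0.01, and LPS-MIC-1 against control 5 higher (9.33%) and 0 lower (6.12%), with medians of 1.52 and 0.01. At an unadjusted p under 0.05, the members lower were 0 in the former and 1 in the latter, where 61.0% and 62.6% of all genes passed that p. The comparisons with LPS and with control share the LPS-MIC-1 libraries, so that they are not separate evidence. Quantile normalization moved the share of called muscle genes that were higher in LPS-MIC-1 than LPS from 64.0% to 53.9%.

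**Figure D2:**
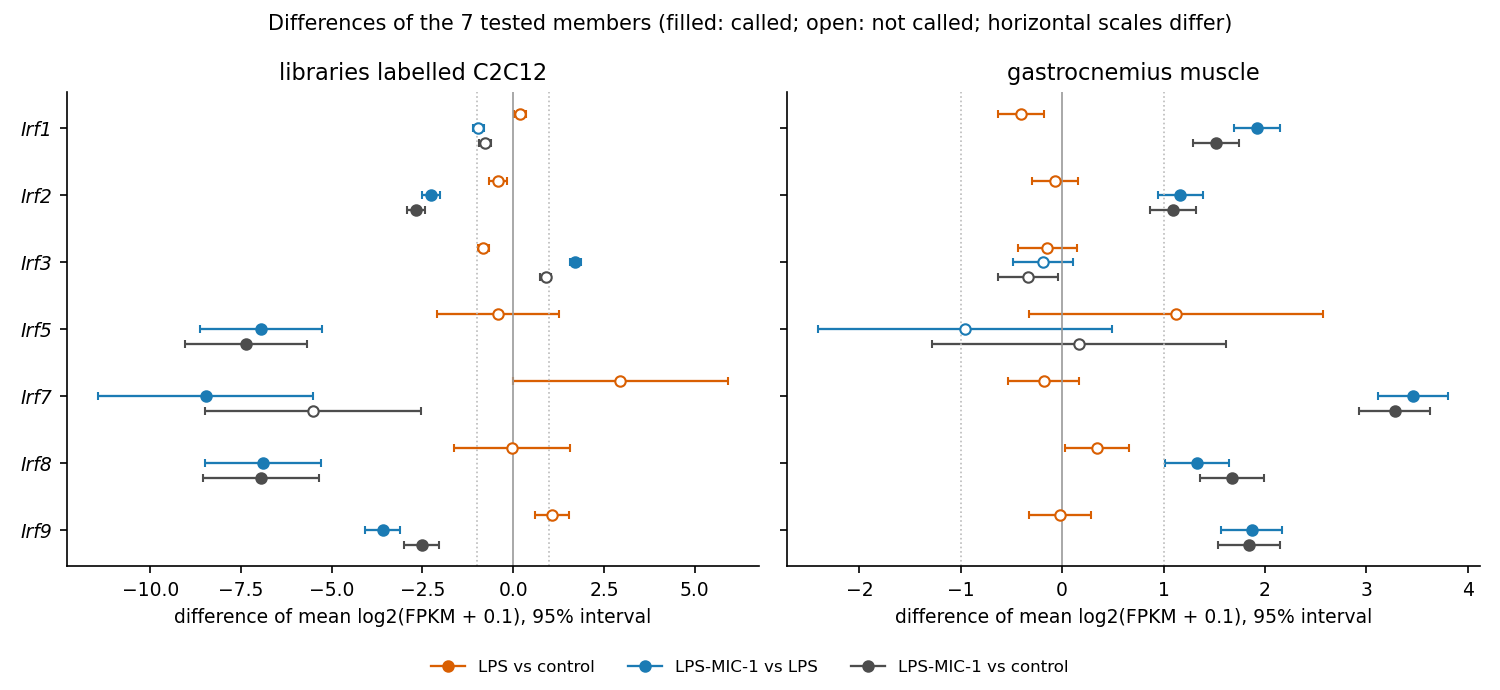
Difference of mean log2(FPKM + 0.1) of the 7 tested members with its 95% interval (horizontal axis, different scales in the 2 panels), for 3 comparisons in the libraries labelled C2C12 and in gastrocnemius. Filled points passed both thresholds. The LPS-MIC-1 differences lie below 0 in cells for all members but Irf3, and above 1 in muscle for Irf1, Irf2, Irf7, Irf8 and Irf9.

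Irf3 is made in most cell types and waits in the cytoplasm until a kinase activates it, whereas Irf7 is itself an interferon target and amplifies the response. Irf3 had 25.1, 24.0 and 24.2 FPKM in control cell libraries, 14.4, 13.2 and 13.8 with LPS and 42.2, 45.6 and 48.8 with LPS-MIC-1. The 3 groups did not overlap, and Irf3 was the one member that was highest in LPS-MIC-1. It was 3.30-fold higher in LPS-MIC-1 than LPS (log2 1.71, SE 0.0631, adjusted p = 5.71e-08), a called rise. Its LPS level was below control by 0.82 on the log2 scale (adjusted p = 1.11e-05) and its LPS-MIC-1 level above control by 0.89 (adjusted p = 2.86e-06), both short of the fold threshold.

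In muscle Irf3 had 11.1, 10.6 and 10.9 FPKM in control, 10.1, 11.2 and 8.37 with LPS and 7.29, 9.68 and 9.00 with LPS-MIC-1. LPS overlapped with both other groups, LPS-MIC-1 lay below control without overlap, and no comparison was called. The interval of the log2 difference was -0.48 to 0.10 for LPS-MIC-1 against LPS and -0.63 to -0.04 for LPS-MIC-1 against control (adjusted p = 0.0509), so a change past the fold threshold lay outside both.

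Irf7 spanned the most FPKM of the family in cells. The control cell libraries had 32.8, 36.9 and 37.7 FPKM, the LPS libraries 274.4, 281.9 and 276.8, and LPS-MIC-1 replicates 1, 2 and 3 had 7.12, 0.568 and 0. LPS stood 7.75-fold over control with no overlap, and the LPS-MIC-1 libraries were below every control library. The log2 difference of LPS from control was 2.95 with an SE of 1.28 (adjusted p = 0.0763), not called, with an SE that takes in the spread of the LPS-MIC-1 libraries. The fit of the 6 control and LPS libraries alone called the same difference (adjusted p = 4.85e-07).

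For LPS-MIC-1 against LPS, Irf7 fell by 8.47 on the log2 scale (SE 1.28, adjusted p = 0.000306). Its size was not well fixed: it was -10.07 without LPS-MIC-1 replicate 1, -6.98 without replicate 3, -6.90 with a pseudocount of 1 and -9.65 with one of 0.01. The call was lost without any 1 of the LPS replicates or without LPS-MIC-1 replicate 2, with adjusted p from 0.00158 to 0.00168. Against control the difference of -5.51 was not called (adjusted p = 0.0040), and without LPS-MIC-1 replicate 1 it was -7.12 and called (adjusted p = 4.22e-05). LPS-MIC-1 replicates 1, 2 and 3 held 2.56%, 0.204% and 0% of the LPS mean of Irf7. For the 3 leading macrophage markers these shares were 2.65%, 0.102% and 0.0335% (Lyz2), 2.49%, 0.138% and 0.0176% (Fcer1g) and 6.66%, 3.62% and 4.33% (Cd14), so that Cd14 stayed higher in replicates 2 and 3 than Irf7 and the other markers. The part of these cells in the result was not tested.

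In muscle the order of the groups was another one for Irf7. Control had 2.53, 2.64 and 2.76 FPKM, LPS 1.76, 2.51 and 2.79, and LPS-MIC-1 25.0, 26.1 and 28.4. Control and LPS overlapped (log2 difference -0.18, interval -0.53 to 0.16), and each LPS-MIC-1 library was far above both. The rise in LPS-MIC-1 was 11.3-fold over LPS (log2 3.46, SE 0.151, adjusted p = 3.63e-07) and 10.0-fold over control (log2 3.28, SE 0.151, adjusted p = 4.79e-07), in size the first of the 7 members in both comparisons. Irf7 in LPS-MIC-1 replicate 3, the library with high macrophage markers, was 28.4 FPKM, close to its other replicates.

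The level of Irf7 relative to Irf3 within a library followed from these values. The ratio of their FPKM was 1.31 to 1.56 in control cell libraries, 19.1 to 21.3 in LPS, and 0.169, 0.0125 and 0 in LPS-MIC-1. In muscle it was 0.227 to 0.252 in control, 0.174 to 0.334 with LPS and 2.70 to 3.43 with LPS-MIC-1. Irf7 thus exceeded Irf3 in every control and LPS library of the cells and in the muscle LPS-MIC-1 libraries, and lay under it in the rest. The 2 tables were normalized separately, so levels set across them were not tested.

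**Figure D3:**
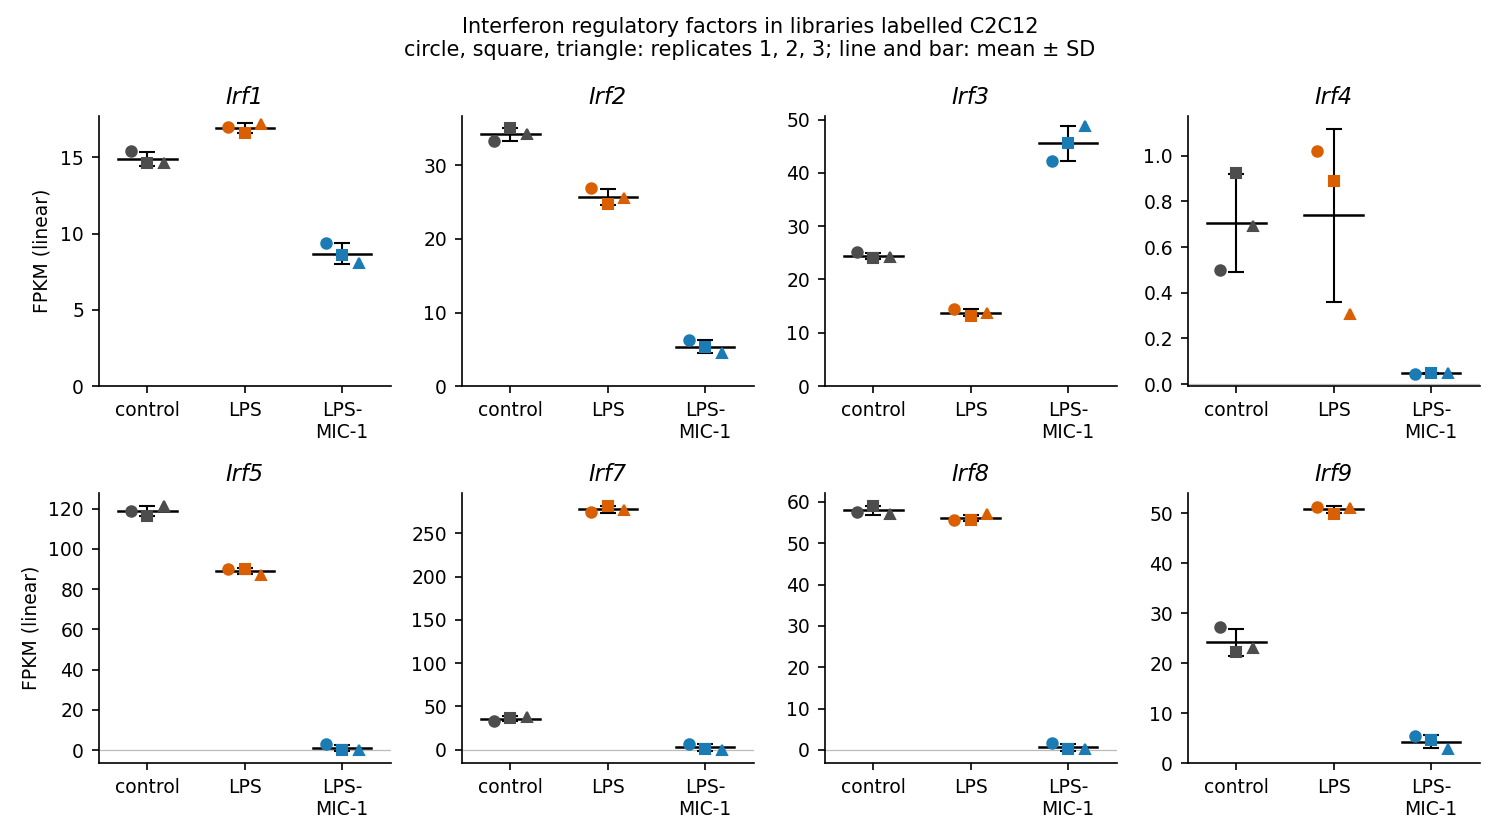
FPKM (vertical axis, linear, own scale per gene) of the 8 members in the 9 libraries labelled C2C12, with replicates 1, 2 and 3 as circle, square and triangle and the mean ± SD in black. Irf7 and Irf9 were highest in LPS, Irf3 in LPS-MIC-1, and Irf5, Irf7 and Irf8 in LPS-MIC-1 replicate 1 were above replicates 2 and 3.

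Irf9, the DNA-binding subunit of the complex with STAT proteins, was highest in LPS as Irf7 was. Control cell libraries had 27.3, 22.3 and 23.0 FPKM, LPS libraries 51.3, 49.8 and 51.1, and LPS-MIC-1 libraries 5.34, 4.58 and 2.84, without overlap. LPS was 2.10-fold over control (log2 1.07, SE 0.207, adjusted p = 0.00213), above the p threshold. Without LPS-MIC-1 replicate 1 or without replicate 3, the difference was called (adjusted p = 0.000938 and 3.81e-05). Irf9 fell in LPS-MIC-1 by 3.59 against LPS (SE 0.207, adjusted p = 6.94e-07) and by 2.52 against control (adjusted p = 7.34e-06). In muscle it had 5.22, 3.83 and 5.20 FPKM in control, 4.06, 5.08 and 4.78 with LPS and 17.7, 17.7 and 16.1 with LPS-MIC-1. LPS and control overlapped (interval -0.33 to 0.28), and LPS-MIC-1 rose 3.69-fold over LPS (log2 1.87, SE 0.133, adjusted p = 6.58e-06) and 3.61-fold over control (adjusted p = 6.98e-06).

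Irf1 and Irf2 bind the same DNA element, Irf1 as an activator that interferon induces and Irf2 mainly as its competitor. In cell libraries Irf1 had 15.4, 14.6 and 14.6 FPKM in control, 17.0, 16.6 and 17.2 with LPS and 9.40, 8.60 and 8.07 with LPS-MIC-1. It spanned the smallest fold of the 7 tested members, with no overlap between groups, and no difference passed the fold threshold: 0.18 for LPS against control (adjusted p = 0.0434), -0.96 for LPS-MIC-1 against LPS (adjusted p = 2.45e-06) and -0.77 against control (adjusted p = 1.09e-05). Without LPS-MIC-1 replicate 1, the second of these was -1.01 and called.

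Irf2 in cell libraries had 33.3, 35.1 and 34.2 FPKM in control, 26.9, 24.8 and 25.5 with LPS and 6.26, 5.28 and 4.53 with LPS-MIC-1. Each step was down and free of overlap. Irf2 fell by 2.25 in LPS-MIC-1 against LPS (SE 0.107, adjusted p = 2.29e-07) and by 2.66 against control (adjusted p = 9.80e-08), and its LPS level was 0.752 of control in FPKM (log2 -0.41, adjusted p = 0.010), which was not called. The Irf1 to Irf2 ratio within a library was 0.417 to 0.463 in control, 0.632 to 0.673 with LPS and 1.5 to 1.78 with LPS-MIC-1.

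In muscle both genes were highest in LPS-MIC-1. Irf1 had 4.98, 6.50 and 5.17 FPKM in control, 4.33, 4.11 and 4.0 with LPS and 15.8, 16.7 and 15.4 with LPS-MIC-1. LPS was below control in all 3 libraries (log2 -0.40, SE 0.0991, adjusted p = 0.0287), short of the fold threshold, and the rise in LPS-MIC-1 was 3.85-fold over LPS (log2 1.92, adjusted p = 9.87e-07) and 2.88-fold over control (log2 1.52, adjusted p = 3.86e-06). Irf2 had 8.41, 9.67 and 9.91 FPKM in control, 9.75, 7.74 and 9.16 with LPS and 21.1, 19.1 and 19.8 with LPS-MIC-1. Control and LPS overlapped, and LPS-MIC-1 rose 2.25-fold over LPS (log2 1.17, SE 0.0979, adjusted p = 1.90e-05) and 2.14-fold over control (log2 1.09, adjusted p = 2.58e-05). Under quantile normalization the latter was 0.95 and lost its call. The Irf1 to Irf2 ratio was 0.521 to 0.672 in control, 0.437 to 0.532 with LPS and 0.750 to 0.876 with LPS-MIC-1.

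**Figure D4:**
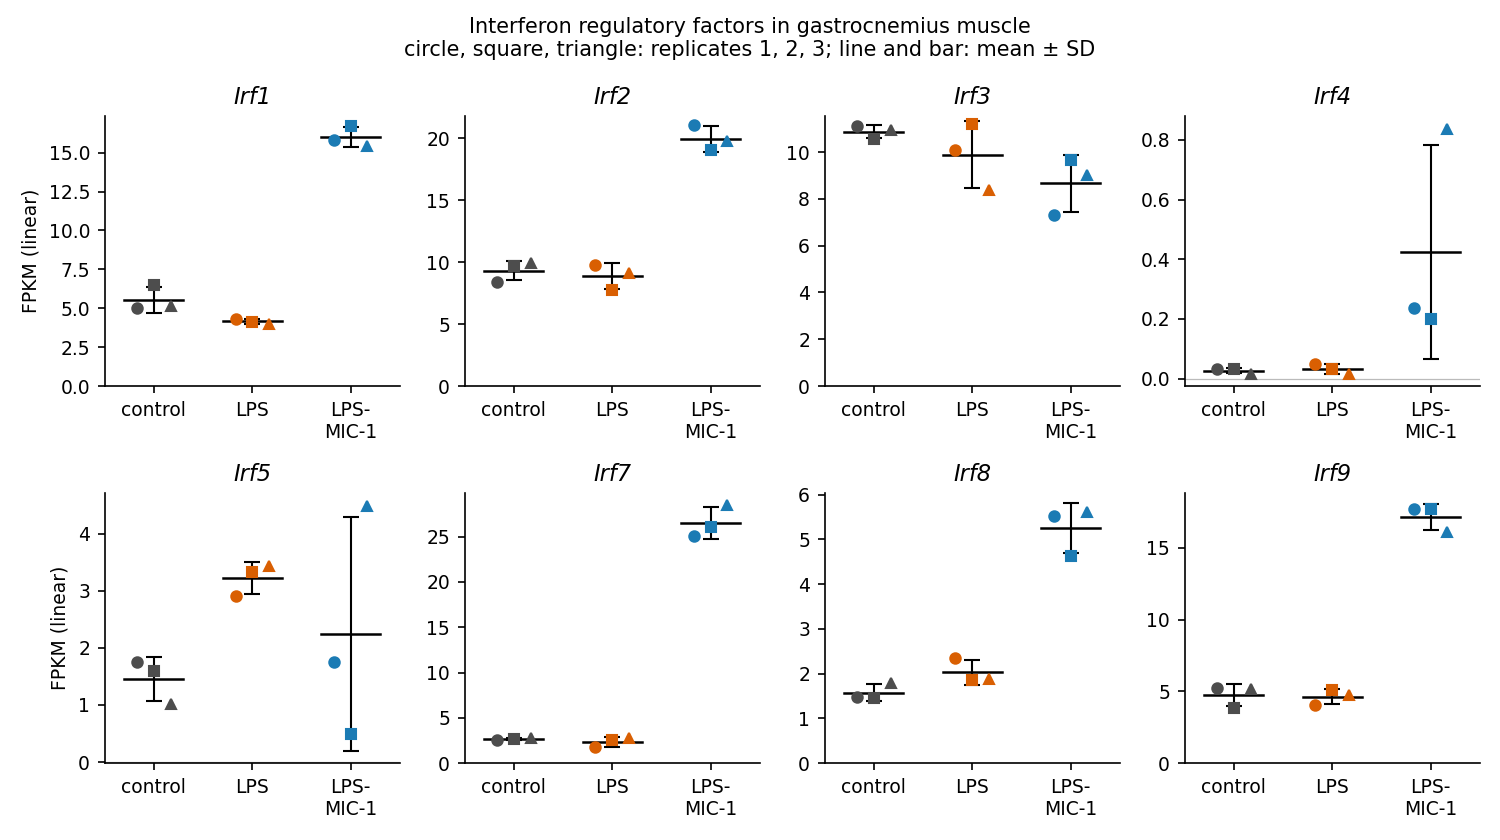
FPKM (vertical axis, linear, own scale per gene) of the 8 members in the 9 gastrocnemius libraries, with replicates 1, 2 and 3 as circle, square and triangle and the mean ± SD in black. Irf1, Irf2, Irf7, Irf8 and Irf9 in all 3 LPS-MIC-1 libraries lie above every control and LPS library, whereas Irf5 ranged from 0.484 to 4.49 FPKM within LPS-MIC-1.

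Irf5 acts downstream of Myd88 on inflammatory cytokine genes and Irf8 directs the making of macrophages together with the factor PU.1, named Sfpi1 in the tables. In cell libraries Irf5 had 118.8, 116.1 and 121.4 FPKM in control, 90.2, 89.8 and 87.2 with LPS and 2.82, 0.252 and 0.266 with LPS-MIC-1. Irf8 had 57.6, 59.1 and 57.1 FPKM in control, 55.7, 55.6 and 57.1 with LPS and 1.69, 0.127 and 0.161 with LPS-MIC-1. Irf5 in LPS lay below control without overlap, Irf8 in LPS and control overlapped, and for both genes LPS-MIC-1 replicate 1 was far above the other replicates. Against LPS, Irf5 fell by 6.95 (SE 0.723, adjusted p = 2.91e-05) and Irf8 by 6.89 (SE 0.690, adjusted p = 2.28e-05), and against control by 7.36 (adjusted p = 2.29e-05) and 6.94 (adjusted p = 2.48e-05). Leaving out a library moved the differences from LPS over -7.96 to -6.43 for Irf5 and -7.85 to -6.36 for Irf8, lowest without LPS-MIC-1 replicate 1 and highest without replicate 2. A pseudocount of 1 gave -5.63 and -5.23, so these folds of genes near 0 depend on the added value. For LPS against control the log2 difference was -0.42 for Irf5 (interval -2.09 to 1.26) and -0.05 for Irf8 (interval -1.64 to 1.55), with intervals that take in the spread of the LPS-MIC-1 libraries. In the fit of the 6 control and LPS libraries alone, the Irf5 difference passed the p threshold but not that of the fold (adjusted p = 2.33e-05), as it did without LPS-MIC-1 replicate 1 in the fit of all groups, and Irf8 did not (adjusted p = 0.0933). LPS-MIC-1 replicate 1 held 3.17% of the LPS mean of Irf5 and 3.02% of that of Irf8, while replicates 2 and 3 held at most 0.298% of either. Among the pairs of the 7 tested members, Irf5 and Irf8 had the closest patterns over the 9 cell libraries, with a root-mean-square difference of 0.20 on the centred log2 scale.

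In muscle the pair separated. Irf8 had 1.49, 1.45 and 1.80 FPKM in control, 2.36, 1.87 and 1.87 with LPS and 5.52, 4.63 and 5.62 with LPS-MIC-1, without overlap between groups. It rose in LPS-MIC-1 2.59-fold over LPS (log2 1.33, SE 0.139, adjusted p = 6.88e-05) and 3.33-fold over control (log2 1.67, adjusted p = 1.62e-05), and LPS against control was not called (log2 0.34, interval 0.02 to 0.66, adjusted p = 0.141). Irf5 had 1.75, 1.59 and 1.02 FPKM in control, 2.90, 3.32 and 3.43 with LPS and 1.76, 0.484 and 4.49 with LPS-MIC-1. Its LPS libraries were above every control library, 2.21-fold in the mean (log2 1.12, SE 0.630, adjusted p = 0.281), and the LPS-MIC-1 libraries spanned both groups. The fit of the 6 control and LPS libraries alone called the difference (adjusted p = 0.0202). LPS-MIC-1 against LPS was -0.96 (adjusted p = 0.230), and -1.67 and called (adjusted p = 0.0191) without LPS-MIC-1 replicate 3, and LPS-MIC-1 against control was 0.17 (interval -1.28 to 1.61). In GRCm38.p6 Irf5 overlaps the gene Tnpo3 and Irf2 overlaps 2 long noncoding RNA genes, and no source used here states whether counting used strand, so reads could be shared. Tnpo3 had 30.2 ± 0.752, 29.4 ± 1.57 and 20.8 ± 1.03 FPKM in control, LPS and LPS-MIC-1 of the cells and 8.32 ± 0.843, 9.13 ± 0.380 and 7.05 ± 1.08 in muscle.

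Irf4, known from lymphocytes, dendritic cells and alternatively activated macrophages, was the scarcest member in every group. Cell libraries had 0.500, 0.926 and 0.692 FPKM in control, 1.02, 0.892 and 0.308 with LPS and 0.0456, 0.0494 and 0.0469 with LPS-MIC-1. Control and LPS overlapped, and LPS-MIC-1 was below both. Muscle had 0.0321, 0.0319 and 0.0162 FPKM in control, 0.0485, 0.0324 and 0.0161 with LPS and 0.237, 0.198 and 0.838 with LPS-MIC-1. The muscle control and LPS values lay within 1% of 1, 2 or 3 times the lowest value, and values this low rest on few reads, and the highest library was LPS-MIC-1 replicate 3. In the fit without an FPKM filter, Irf4 was lower in LPS-MIC-1 than LPS by 2.38 on the log2 scale in cells (adjusted p = 0.000525) and higher by 1.79 in muscle (adjusted p = 0.00782).

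Markers of other cells moved with the muscle LPS-MIC-1 group as well. The 8 neutrophil markers found summed to 14.9 to 19.8 FPKM in LPS-MIC-1, 1.76 to 2.02 in LPS and 1.76 to 2.74 in control, with Csf3r and Ngp at 0 in every control and LPS library. Endothelial markers summed to 107 to 124 FPKM in LPS-MIC-1, 66.3 to 69.3 in LPS and 104 to 108 in control, but the list was split. Of 7 tested, 2 were called higher and 0 lower than LPS (4 and 1 at an unadjusted p under 0.05). Against control 1 was called higher and 1 lower (2 and 4 at that p). Macrophage marker sums in LPS-MIC-1 replicates 1 and 2 were also above LPS, at 40.4 and 38.1 FPKM, but the markers did not move alike. Of 8 tested, 4 were called higher than LPS and 0 lower (4 and 0 at an unadjusted p under 0.05). The leading Lyz2 had 29.2 ± 42.6 FPKM in LPS-MIC-1 and 8.96 ± 0.674 in LPS, a spread in LPS-MIC-1 above its mean. Emr1, Ptprc and Clec7a of that list were at 0 in the 3 LPS libraries. Over all 9 muscle libraries they were at 0 in 7, 5 and 8. Lymphocyte markers (1.05 to 1.63 FPKM) and dendritic cell markers (1.57 to 2.83 FPKM) overlapped between groups. The fibroblast markers summed to 140 to 157 FPKM in LPS-MIC-1, 132 to 134 in LPS and 127 to 136 in control, yet 2 of the 7 were called lower in LPS-MIC-1 than LPS and 6 were lower at an unadjusted p under 0.05. The myoblast markers summed to 1741 to 1871 FPKM in LPS-MIC-1 against 1604 to 1712 in the other groups, while Myod1 among them had 4.72 ± 0.534 FPKM in LPS-MIC-1, 33.9 ± 0.617 in LPS and 21.9 ± 1.97 in control. The fibre genes summed lower in LPS-MIC-1, as given above, yet of the 10 tested 0 were called lower than LPS or control and 1 was called higher than control. At an unadjusted p under 0.05, 2 were higher and 7 lower than LPS, and 3 were higher and 5 lower than control. Without LPS-MIC-1 replicate 3, 5 members were called higher in LPS-MIC-1 than control. That fit keeps replicates 1 and 2, whose macrophage and neutrophil marker sums were also above every LPS and control library. The part of these cells in the Irf differences was not tested.

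The other genes of the pathway were read from lists without the members, 86 found of 89, of which 63 in cells and 48 in muscle passed the FPKM minimum. That minimum is a mean over all 9 libraries. A gene under it in the other groups could pass through the group where it was high, and its direction was then fixed in part. In muscle, some genes of the sensor, partner, inhibitor and target lists passed in this way through LPS-MIC-1. In cells, 19 were called higher and 0 lower in LPS than control (34 and 11 at an unadjusted p under 0.05), with a median log2 fold change of 0.68. Over all genes tested, 10.9% were called higher in that comparison, 10.0% lower, and 66.2% passed the unadjusted p. LPS-MIC-1 against LPS gave 2 higher (24.3% of all genes) and 51 lower (25.6%) with a median of -3.87. LPS-MIC-1 against control gave 3 higher (21.1%) and 33 lower (22.1%) with a median of -1.79. In muscle, LPS against control gave 0 higher (0.654% of all genes) and 3 lower (0.591%), with a median of -0.06. At an unadjusted p under 0.05, which 29.6% of all genes passed, 3 were higher and 8 lower. LPS-MIC-1 against LPS gave 29 higher (9.67% of all genes) and 0 lower (5.44%) with a median of 1.40. There 35 were higher and 2 lower at an unadjusted p under 0.05, which 61.0% of all genes passed. LPS-MIC-1 against control gave 26 higher (9.33%) and 1 lower (6.12%) with a median of 1.22. The same shares of all genes stand beside the counts of each list below. Most called genes were thus lower in the LPS-MIC-1 libraries of the cells and higher in those of muscle.

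Ligands came low in both tables. None of the 16 interferon genes found, of 18 listed, reached the FPKM minimum in either table, and 11 of them in cells and 13 in muscle were at 0 in all 9 libraries. Ifnb1, the first interferon made after sensing, had 0.377 ± 0.0623 FPKM in the LPS cell libraries, 0.0281 ± 0.0487 in control and 0.0321 ± 0.0555 in LPS-MIC-1, and was listed at 0 in every muscle library.

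Sensors, adaptors and kinases upstream of the family were tested for 17 genes in cells. Of these, 2 were called higher in LPS than control, a share near the 10.9% of all genes, and the larger difference was that of Ticam1, the adaptor between Tlr4 and the kinases of Irf3, at 78.1 ± 3.28 against 14.7 ± 0.258 FPKM (log2 2.40, adjusted p = 1.60e-07). In LPS-MIC-1, 11 were called lower than LPS and 12 lower than control, led in both by the endosomal RNA sensor Tlr7, at 0.151 ± 0.221 FPKM against 12.3 ± 0.549 in LPS and 29.5 ± 2.31 in control. In muscle 8 were tested and none was called for LPS against control, with 1 higher and 0 lower at an unadjusted p under 0.05. There, 4 were called higher in LPS-MIC-1 than LPS and 4 higher than control, the cytosolic RNA sensor Ddx58 leading the former (3.16 ± 0.180 against 1.13 ± 0.0602 FPKM, adjusted p = 0.000266) and the kinase Tbk1 the latter (7.86 ± 0.430 against 2.62 ± 0.163 FPKM, adjusted p = 7.40e-07).

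Receptors, JAK and STAT genes all passed the FPKM minimum, 9 in each table. In cells 1 of the 9 was called higher in LPS than control, a share near the 10.9% of all genes. It was Jak2 (24.3 ± 0.444 against 6.63 ± 0.438 FPKM, adjusted p = 9.77e-07). In LPS-MIC-1, 6 were called lower than LPS (25.6% of all genes), led by the Irf9 partner Stat2 at 1.3 ± 0.859 against 42.1 ± 0.393 FPKM (adjusted p = 2.20e-05). Against control 2 were called lower, a share near the 22.1% of all genes. The receptor chain Ifngr2 led these, at 28.6 ± 4.63 against 70.6 ± 0.965 FPKM. In muscle none was called for LPS against control (2 higher and 2 lower at an unadjusted p under 0.05). Stat2 was the 1 gene called higher in LPS-MIC-1 than LPS, at 9.84 ± 0.173 against 2.58 ± 0.191 FPKM (adjusted p = 4.67e-07). That count is a share near the 9.67% of all genes. Against control, 2 genes were called higher (9.33% of all genes).

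Among DNA-binding partners and cofactors, 6 were tested in cells and none was called for LPS against control (2 higher and 1 lower at an unadjusted p under 0.05). Sfpi1, the partner of Irf4 and Irf8, had 387 ± 8.99 FPKM in control, 306 ± 5.40 with LPS and 3.02 ± 4.83 with LPS-MIC-1, and led the 5 genes called lower than LPS and the 4 called lower than control. Irf2bp1, which binds Irf2 as a corepressor, was the 1 gene called higher in LPS-MIC-1, at 43.8 ± 1.33 FPKM against 14.5 ± 1.03 in LPS and 19.1 ± 0.764 in control. In muscle, with 5 tested, its relative Irf2bp2 fell in LPS to 3.97 ± 0.342 from 11.6 ± 1.09 FPKM (log2 -1.52, adjusted p = 3.98e-05). Sfpi1 led the 2 genes called higher in LPS-MIC-1 than LPS and was the 1 called higher than control, at 3.86 ± 3.81 FPKM against 0.597 ± 0.134 and 0.534 ± 0.0685, a spread within LPS-MIC-1 as large as the mean. With these levels Sfpi1 passed the FPKM minimum only through LPS-MIC-1, so its direction was fixed in part by the filter.

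Inhibitors of the pathway were tested for 7 genes in cells and 6 in muscle. Socs3, a feedback inhibitor of JAK kinases, was the 1 gene called higher in LPS than control in cells (298 ± 2.47 against 33.0 ± 1.43 FPKM, adjusted p = 6.95e-07). In LPS-MIC-1 the related Socs1 was called higher than in LPS and control (14.4 ± 1.81 FPKM against 3.84 ± 0.229 and 2.17 ± 0.743), while 5 genes were lower than LPS, led by Usp18, and 4 lower than control, led by the phosphatase gene Ptpn6. Usp18, which blocks the type I interferon receptor, had 0.807 ± 1.31 FPKM in LPS-MIC-1 and 63.0 ± 0.439 in LPS. In muscle Socs1 fell in LPS from 48.8 ± 1.08 to 0.866 ± 0.478 FPKM (log2 -5.79, adjusted p = 1.84e-05) and was 4.11 ± 0.586 in LPS-MIC-1, the 1 gene called lower there than control. It was 1 of 2 inhibitors called lower in LPS. Socs3 led the 4 called higher in LPS-MIC-1 than LPS (5.84 ± 0.821 against 0.697 ± 0.395 FPKM, adjusted p = 0.000142), and Usp18 the 2 called higher than control (7.98 ± 0.576 against 2.02 ± 0.825 FPKM, adjusted p = 0.000297).

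Targets, the antiviral and antigen presentation genes that the family acts on, made up the longest list. In cells 15 of 24 tested were called higher in LPS than control and 0 lower (17 and 0 at an unadjusted p under 0.05), led by the chemokine gene Ccl5 at 7139 ± 60.4 against 6.89 ± 2.20 FPKM (log2 10.04, adjusted p = 7.87e-05). All 24 were called lower in LPS-MIC-1 than LPS, with a median of -5.49, led by the antiviral gene Rsad2 at 2.34 ± 3.78 against 261 ± 4.41 FPKM (adjusted p = 0.000167). Against control, 11 were lower, led by Ifi44, and 1 higher, Gbp2, at 1.60 ± 0.245 against 0.0721 ± 0.0331 FPKM. In muscle 20 were tested and none was called for LPS against control (0 higher and 3 lower at an unadjusted p under 0.05), with a median of 0.08. There, 18 were called higher in LPS-MIC-1 than LPS, with a median of 2.80, and 17 higher than control, with a median of 2.5. Ccl5 led both, at 20.8 ± 1.87 FPKM in LPS-MIC-1 against 0.322 ± 0.296 in LPS and 0.189 ± 0.188 in control. Ccl5 and some other muscle targets were under 1 FPKM in control and LPS and passed the FPKM minimum only through LPS-MIC-1. In cells some targets, Gbp2 among them with 5.17 ± 0.218 FPKM in LPS, passed it through their LPS level. The direction of these targets was thus fixed in part by the filter, and the counts and medians take them in.

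**Figure D5:**
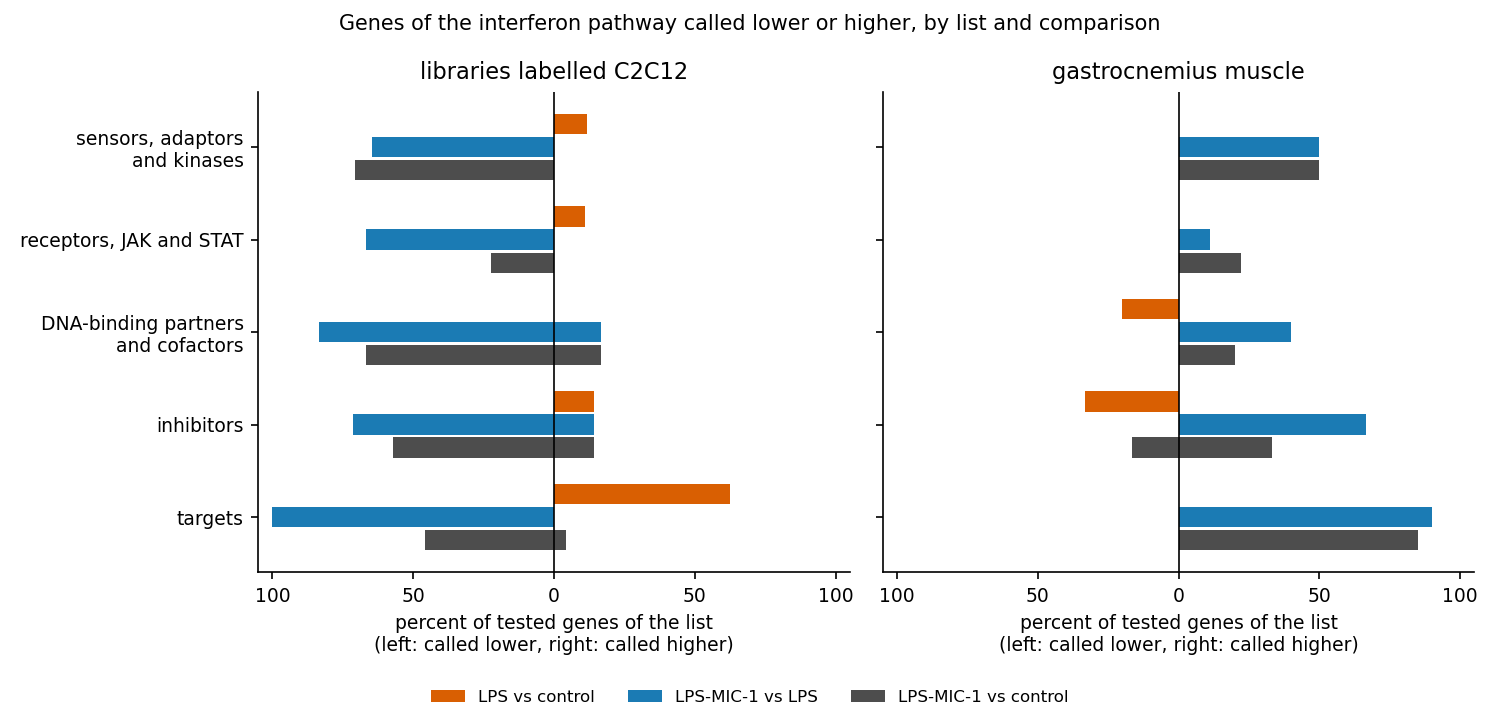
Percent of the tested genes of each list called lower (left of 0) or higher (right of 0) in 3 comparisons, for the libraries labelled C2C12 and for gastrocnemius. All 24 targets were lower in LPS-MIC-1 than LPS in the former, and 18 of 20 were higher in the latter. Some genes passed the FPKM minimum only through the group where they were high.

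The genes closest in pattern to each member were taken by the smallest root-mean-square difference of centred log2(FPKM + 0.1) over the 9 libraries of a table. In cells these were Dcaf12 and 1110008J03Rik for Irf1 (0.04 and 0.06), Kdm3b and Wdr11 for Irf2 (0.07 and 0.08), and Taf6 and Polr2e for Irf3 (0.05 for both). For Irf5 they were Arhgap30 and Icam1 (0.07 and 0.14), for Irf8 Prex1 and Arhgap30 (0.12 and 0.15), and for Irf9 Dnmbp and Adm (0.10 and 0.12). Irf7 had no close match, with Osm at 0.48 and Ms4a6d at 0.56. In muscle the nearest genes were Pnp and Cxcr7 for Irf1 (0.09 and 0.10), D930016D06Rik and Xab2 for Irf2 (0.07 and 0.09), and Zfp276 and Trp53i13 for Irf3 (0.07 for both). They were Runx1 and the interferon-inducible gene Ifi204 for Irf7 (0.13 and 0.17), Ccdc77 and Tbl1xr1 for Irf8 (0.15 for both), and Lgals4 and Lin52 for Irf9 (0.11 for both). Runx1 had 0.222, 0.197 and 3.21 FPKM in control, LPS and LPS-MIC-1, and Ifi204 0.695, 0.654 and 7.80. Both passed the FPKM minimum only through LPS-MIC-1, and at such low levels the added 0.1 shapes the pattern. The muscle pattern of Irf5 had no close match, with Car2 at 0.39 and Rasgrp3 at 0.47.

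The order of the members by level differed between groups. In the control cell libraries it ran Irf5, Irf8, Irf7, Irf2, Irf3, Irf9, Irf1 and Irf4, with Irf7 and Irf2 overlapping and Irf3 and Irf9 overlapping. In LPS it ran Irf7, Irf5, Irf8, Irf9, Irf2, Irf1, Irf3 and Irf4, and no neighbours overlapped. In LPS-MIC-1 it ran Irf3, Irf1, Irf2, Irf9, Irf7, Irf5, Irf8 and Irf4, where neighbours from Irf2 to Irf8 overlapped. Muscle control ran Irf3, Irf2, Irf1, Irf9, Irf7, Irf8, Irf5 and Irf4, with Irf1 and Irf9 overlapping and Irf8 and Irf5 overlapping. Muscle LPS ran Irf3, Irf2, Irf9, Irf1, Irf5, Irf7, Irf8 and Irf4, with overlaps between Irf3 and Irf2, Irf9 and Irf1, and Irf7 and Irf8. Muscle LPS-MIC-1 ran Irf7, Irf2, Irf9, Irf1, Irf3, Irf8, Irf5 and Irf4, where Irf9 and Irf1 overlapped and Irf5 and Irf4 overlapped. Irf4 came last in all 6 groups.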

How the data were processed

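RNA-seq was measured in 18 libraries, 9 from cells labelled C2C12 and 9 from gastrocnemius muscle, grouped by their labels. Reads were quantified by the authors with kallisto, tximport gave gene values, and the FPKM of each gene and library were deposited. The submitters' notes name build mm9. Reads per library are not stated, so no counting interval could be given. Of 11 further unnamed columns in the muscle table, 9 hold values per sample, and none was used. The authors' DESeq2 tables give fold changes and p-values, left out here, and a deposited signal column. That column is the authors' mean of counts divided by size factors over the 6 libraries compared. For the members in cells it ran from 27.7 (Irf4, LPS and LPS-MIC-1) to 4901 (Irf7, control and LPS). For muscle control and LPS it gave Irf4 0, Irf8 2534 and Irf9 115, and for muscle control and LPS-MIC-1 Irf8 128 and Irf9 342. The FPKM of the muscle control and LPS libraries had Irf4 above 0 and Irf9 above Irf8. The cause of this mismatch was not tested.

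Each table was fitted apart with limma 3.58.1 in R 4.3.3 on log2(FPKM + 0.1), with 3 group means, eBayes with a trend and genes of mean FPKM over 1. The thresholds follow the study. Members and gene lists were chosen with earlier results of these data known. Named genes were the members, the called gene of each pathway list with the largest rise and fall per comparison, the 2 closest patterns per tested member, and the 3 most abundant genes of a marker list. Markers named for being at 0 (Myf5, Pax7, Msc, Csf3r, Ngp, Emr1, Ptprc, Clec7a) were chosen after their values were seen. Irf4, under the FPKM minimum, was given as levels and from the fit without a filter. Some named genes are not reported here. Alternatives were quantile normalization and median-ratio scaling, pseudocounts of 1 and 0.01, a mean FPKM over 5 or no filter, a replicate block, eBayes with no trend, a fit of the 6 libraries of a comparison alone, and leaving out each library. Steps were tested on simulated data. Gene overlaps came from the GRCm38.p6 gene table. Promoter and protein sequences were not analysed here.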

Additional observations from a re-analysis of the deposited data

Results flagged for a closer look

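Some members moved one way in all 3 cell libraries of a group and the opposite way in all 3 muscle libraries. The share of all genes that did so was not computed, so no trait of the family is read from it. For LPS-MIC-1 against LPS, 85.2% of all genes tested in cells and 61.0% in muscle passed an unadjusted limma p under 0.05. The tables were normalized separately and the difference between the experiments was not tested. For LPS against control, Irf1 was 0.18 in cells and -0.40 in muscle (log2), and Irf5 was -0.42 and 1.12, none of them called. For LPS-MIC-1 against LPS, the log2 differences in cells and in muscle were -0.96 and 1.92 for Irf1, -2.25 and 1.17 for Irf2, -2.38 and 1.79 for Irf4, -8.47 and 3.46 for Irf7, -6.89 and 1.33 for Irf8, and -3.59 and 1.87 for Irf9. For LPS-MIC-1 against control they were -0.77 and 1.52 for Irf1, -2.66 and 1.09 for Irf2, 0.89 and -0.34 for Irf3, -2.42 and 1.85 for Irf4, -5.51 and 3.28 for Irf7, -6.94 and 1.67 for Irf8, and -2.52 and 1.84 for Irf9. In cells the LPS-MIC-1 libraries carried myoblast markers and the others macrophage markers, so treatment and cell identity cannot be told apart.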

How the results depend on the processing

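Of 750 values of a member under an alternative, 724 kept direction and side of the thresholds. The count of called members for LPS against control in cells was 0, and became 1 with pseudocount 1, 1 with quantile normalization, 2 with only the 6 libraries compared and 0 to 1 when a library was left out. In muscle it was 0 and became 1 with only the 6 libraries. Irf5 in muscle, LPS-MIC-1 against control, turned to -0.0206 under quantile normalization and ranged from -0.55 to 0.94 when a library was left out. The log2 difference of LPS from control in muscle also crossed 0 when a library was left out, for Irf2 (-0.145 to 0.0216), Irf7 (-0.31 to 0.0054) and Irf9 (-0.17 to 0.067). Irf7 in cells, LPS-MIC-1 against LPS, lost its call with pseudocount 0.01 (adjusted p = 0.00219) and with only the 6 libraries (0.00231), and gained it against control with pseudocount 1 (0.000428). The causes were not tested. The called genes of muscle were 118 for LPS against control, 71 with pseudocount 1 and 57 with a mean FPKM over 5. For LPS-MIC-1 against LPS they were 1431, 2158 without a filter and 656 with a mean over 5, and against control 1464, 2240 and 677. Quantile normalization shifted the median of all muscle genes by -0.12 in both LPS-MIC-1 comparisons. Same-numbered replicates deviated with r of -0.0757 to 0.0573 in cells and -0.0540 to 0.0823 in muscle. Other pairs had r of -0.0910 to 0.121 and -0.0745 to 0.0811. For muscle LPS with LPS-MIC-1, same-numbered pairs had 0.0823, 0.0626 and 0.0282. These values do not settle whether the numbers paired libraries. The replicate block left 0, 6, 4, 0, 5 and 5 called members in the 6 comparisons, as without it. Depth is unknown, so no limit from counts could be set for Irf4 or the interferon genes.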
